A study of Mus musculus with 4 samples.

Results

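The cytosolic ribosomal protein genes were followed across cell classes, tissue regions and libraries of injured mouse brain. Members were the gene rows whose symbol was Rpl, Rps or Rplp followed by a number, without pseudogene rows, and with at least 100 unique molecular identifiers (UMIs, each standing for 1 captured transcript) summed over 4 count matrices. The pattern matched 82 of 33696 gene rows, and 79 of these reached the minimum. They comprised 48 large-subunit genes, of which 3 encode the acidic stalk (Rplp0, Rplp1 and Rplp2), and 31 small-subunit genes. The 3 that fell short were Rpl10l with 0 UMIs, Rpl39l with 11 and Rpl3l with 97, whereas the lowest member, Rps27l, had 626.

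Each cytosolic ribosome holds a small subunit, which decodes mRNA, and a large subunit, which joins amino acids, and nearly all of their proteins are made from single-copy genes. Ribosomal protein mRNAs are short, abundant and mostly cytoplasmic, and many begin with a pyrimidine-rich tract through which mTOR signalling controls their translation. Of these mRNAs, nuclei carry mostly newly made copies and those in whatever cytoplasm stays attached. The share measured in a nuclear library is therefore small and is not the cellular level.

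Single nuclei came from the brains of mice at 21 days after photothrombotic (PT) injury, a light-induced focal cortical ischaemia. The control library came from wild-type mice, and the Cxcl12-cKO library from mice that combined the tamoxifen-inducible Col1a2-creER, active in fibroblasts, with floxed Cxcl12. Each library pooled 1 male and 1 female mouse, and lesional and perilesional (parenchymal) nuclei were tagged and loaded at 75% and 25%. Every nucleus of a genotype thus shared 1 library, and effects of genotype, mouse and library cannot be separated. Within a library, mice were told apart by sex-linked UMIs only. With 1 library per genotype there was no test between libraries. The intervals given are exact 95% intervals for counting error only and hold no spread between mice.

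The targeted gene went against the labels. Its level in lesional fibroblast-like nuclei was 106 CPM (UMIs scaled to a fixed total per group, as counts per 1e6) under the label control and 215 CPM under the label Cxcl12-cKO. Which exons were floxed is not stated, a 3′ count from outside the deleted exons checks nothing, and the libraries are named by their labels throughout. After filtering, 21743 of 23489 barcodes were kept, with median depths of 2962 and 2975 UMIs in the lesions and 15915 and 16648 UMIs in the parenchyma. The libraries shared 47 barcodes, and nuclei with both Xist and Y-linked UMIs made up 9.75 to 14.3% of each matrix. Class names rest on marker genes, and the endothelial-like cluster also carried fibroblast markers.

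In the lesion, members made up 0.286% of all UMIs in the control-labelled library and 0.310% in the Cxcl12-cKO-labelled library. In the parenchyma the shares were 0.147% and 0.164%. The lesional share was therefore higher in both libraries, by 0.96 (95% interval 0.95 to 0.97) and 0.92 (0.91 to 0.93) on the log2 scale. At least 1.5-fold higher in the lesion were 67 of 79 members in the control-labelled library, against 39.5% of all genes tested, and 65 of 79 in the Cxcl12-cKO-labelled library, against 43.1%. The mitochondrial share, a sign of attached cytoplasm and nuclear quality, moved the same way, with 0.801% and 0.819% in the lesions and 0.0589% and 0.0999% in the parenchyma. Its part in the result was not tested. The regions also held different cell classes, with neurons the majority of the parenchyma only, so values within classes follow.

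Members with the most UMIs in the nuclei kept included Rpl6, Rpl41, Rpl27a, Rpl13, Rps24, Rplp1, Rps29, Rpl37a and Rpl21. These totals count captured transcripts, and how well each member was captured was not measured. Rpl41, a very short basic peptide of the large subunit, had 66.0 CPM in the lesion and 37.1 CPM in the parenchyma of the control-labelled library. In the Cxcl12-cKO-labelled library it had 78.5 and 43.4 CPM. Rpl6 differed less between regions, at 63.9 and 55.0 CPM and then 65.6 and 57.3 CPM. The lesional level was the higher for both, by a margin that varied between members.

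The stalk proteins recruit translation factors to the ribosome. Rplp1 had 70.1 CPM in the lesion and 25.6 CPM in the parenchyma of the control-labelled library, and 71.5 and 29.5 CPM in the other. Rplp2 had 31.8 and 13.8 CPM, then 33.1 and 14.1 CPM. Rplp0, which anchors the stalk, had 25.4 and 5.82 CPM, then 26.3 and 6.51 CPM. All 3 were higher in both lesions. Ordering the 79 members by CPM gave much the same order in both libraries, with a Spearman rho of 0.975 in the lesion and 0.980 in the parenchyma. Between lesion and parenchyma the orders were less alike, with rho of 0.730 and 0.753. These are correlations over 79 genes that share libraries and depth, and genes are not independent replicates.

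Transcription start sequences are shown for members on which the class and region results turn. They are RefSeq windows of build GRCm38.p6 on the transcribed strand, with 10 bases before and 20 bases from the annotated start. Capitals mark a run that opens with C, holds at least 4 further C or T letters and starts within 5 bases of the annotated start. The files use build GRCm39, so these coordinates are not those of the counts. Rps27 (chr3:90213629-90213658, minus strand), Rpl9 (chr5:65391412-65391441, minus) and Rpl22l1 (chr3:28805498-28805527, plus) had among the lowest ratios of lesion over parenchyma in excitatory-neuron-like nuclei, Rps9 (chr7:3704031-3704060, plus) and Rps6 (chr4:86857348-86857377, minus) among the highest, and Rpl15 (chr14:18270967-18270996, minus) varied most between classes.
Rps27: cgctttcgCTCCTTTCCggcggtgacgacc
Rpl9: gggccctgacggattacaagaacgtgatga
Rpl22l1: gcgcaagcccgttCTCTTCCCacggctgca
Rps9: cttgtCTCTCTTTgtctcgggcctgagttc
Rps6: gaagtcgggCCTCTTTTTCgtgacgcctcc
Rpl15: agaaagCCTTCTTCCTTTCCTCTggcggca
Such a run was present in 28 of 59 members with a window (47.5%), against 4989 of 27025 genes with a window (18.5%). It began exactly at the annotated start in 12 members (20.3%) and in 2.49% of all genes. Of the mitochondrial ribosomal protein genes, 15 of 69 held a run (21.7%) and 0 began at the start. The run was present in members with low and members with high ratios of lesion over parenchyma in excitatory-neuron-like nuclei, and a match of letters is a description, not a shown control element. Windows were not found for 20 members.

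**Figure D1:**
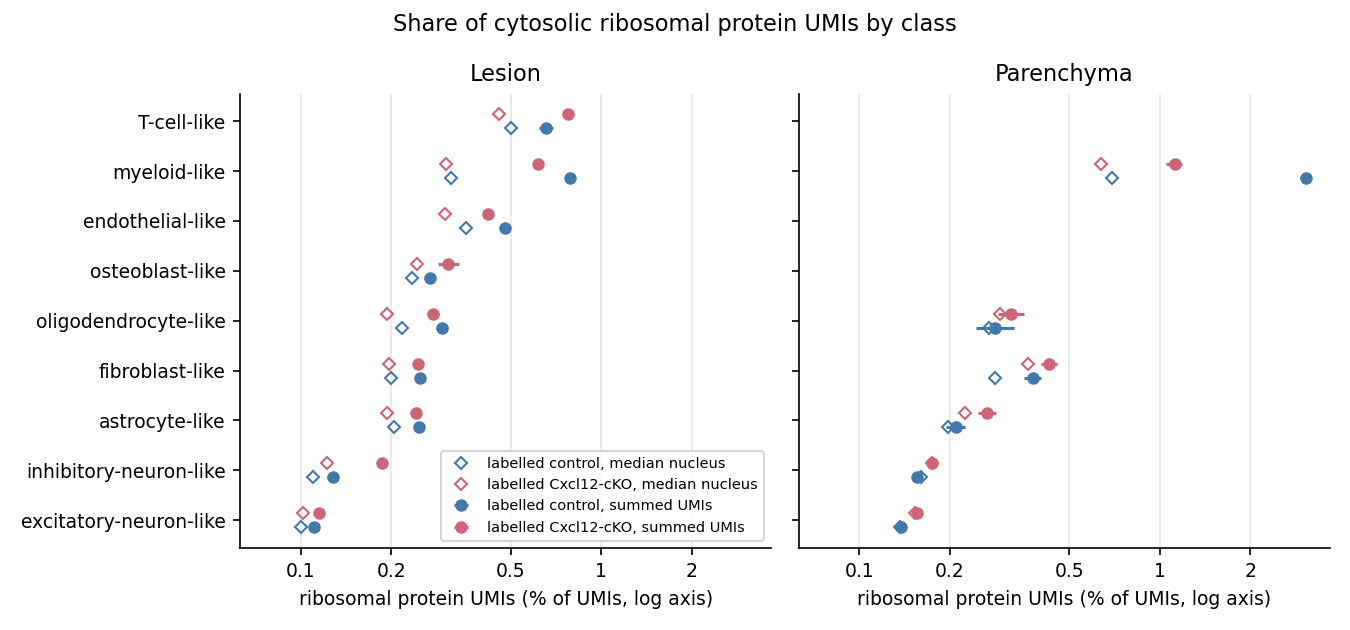
Share of all UMIs from the 79 members (horizontal log axis, %) for each class with at least 20 nuclei, in lesion (left) and parenchyma (right). Filled points are summed UMIs with exact 95% counting intervals and open diamonds are the median nucleus; myeloid-like nuclei sit far right of their median nucleus in both panels.

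Among lesional classes, neurons had the lowest share and T-cell-like and myeloid-like nuclei the highest, as the plot of shares by class shows. Excitatory-neuron-like nuclei were at 0.111% and 0.115% in the control-labelled and Cxcl12-cKO-labelled libraries. Inhibitory-neuron-like nuclei were at 0.128% and 0.187%. Astrocyte-like nuclei (0.248% and 0.241%) and fibroblast-like nuclei (0.25% and 0.246%) lay close together, and their log2 ratios, -0.01 (-0.05 to 0.03) and -0.03 (-0.06 to 0.01), had intervals that held 0. Oligodendrocyte-like nuclei followed at 0.295% and 0.276%, and osteoblast-like nuclei were at 0.269% and 0.310%, a pair whose order differed between libraries.

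Against fibroblast-like nuclei, 77 of 79 members were at least 1.5-fold lower in excitatory-neuron-like nuclei of the control-labelled library, where 54.6% of all genes were, and 73 of 79 in the Cxcl12-cKO-labelled library, where 55.2% were. Higher shares were found in vascular and immune classes. Endothelial-like nuclei were at 0.480% and 0.421%. Outside the 5% with the most member UMIs, 23.3% and 33.2% of them carried both Xist and Y-linked UMIs. In fibroblast-like nuclei these percentages were 7.76% and 9.68%. The part of such mixed nuclei in the endothelial-like values was not tested. T-cell-like nuclei were at 0.656% and 0.778%, and myeloid-like nuclei at 0.786% and 0.615%, so the order of the top pair also differed between libraries. Without nuclei that had at least 5% of their UMIs from members, an alternative chosen after seeing the data, myeloid-like nuclei were at 0.419% and 0.370%, below endothelial-like nuclei at 0.471% and 0.421%, and T-cell-like nuclei were highest in both libraries at 0.621% and 0.757%. Against fibroblast-like nuclei, 70 and 63 members were at least 1.5-fold higher in endothelial-like nuclei (18.8% and 17.4% of all genes) and 70 and 76 in T-cell-like nuclei (34.2% and 33.9%). The mitochondrial share was 3.64% and 3.81% in T-cell-like nuclei, 1.16% and 0.898% in myeloid-like nuclei and 0.150% and 0.180% in excitatory-neuron-like nuclei. Median depth was 1332 and 1435 UMIs in T-cell-like nuclei against 13918 and 12781 UMIs in excitatory-neuron-like nuclei.

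Over 30 points, each a class in 1 region of 1 library, the log2 member share had a Pearson r of 0.67 with the log2 mitochondrial share and of -0.79 with median depth. With translation factors (such as Eef1a1 and Pabpc1) r was 0.98, and with abundant cytoplasmic mRNAs (such as Fth1 and Tmsb4x) it was 0.95. With nuclear-retained RNAs (such as Malat1) it was 0.10. Within the 18 lesional and the 12 parenchymal points r was 0.88 and 0.63 for the mitochondrial share, -0.85 and -0.83 for median depth, and 0.51 and -0.30 for nuclear-retained RNAs. The points share libraries, mice and depth, so these values describe the points and carry no p. The part of depth and of attached cytoplasm in the class order was not tested.

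Myeloid-like nuclei had a higher member share than fibroblast-like nuclei, and few nuclei held much of it. In the control-labelled library, myeloid-like nuclei exceeded lesional fibroblast-like nuclei by 1.65 (1.63 to 1.67) on the log2 scale, and in the Cxcl12-cKO-labelled library by 1.32 (1.3 to 1.35). At least 1.5-fold higher were 78 of 79 members in the first, against 28.5% of all genes, and 76 of 79 in the second, against 27.3%. The median member was 1.63 and 1.3 higher, against 0.06 and 0.04 over all genes tested. Large-subunit members (1.62 and 1.3) and small-subunit members (1.69 and 1.36) were higher by similar amounts, and the log2 ratio of the mitochondrial share was 0.08 and -0.03.

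Named members spanned a wide range in that comparison. Their values, and the counts of members above, are of summed UMIs and include the few nuclei that held much of the total. Member values without those nuclei are not given. Rpl29 had 55.9 CPM in myeloid-like and 12.4 CPM in fibroblast-like nuclei of the control-labelled library, and 40.3 and 13.8 CPM in the Cxcl12-cKO-labelled library. Rps9 had 134 CPM in myeloid-like and 35.0 CPM in fibroblast-like nuclei of the Cxcl12-cKO-labelled library, a log2 ratio of 1.94 (1.78 to 2.11). Rpl22l1, the paralogue of Rpl22, differed least, with 27.9 and 19.9 CPM and a log2 ratio of 0.50 (0.16 to 0.82), then 21.8 and 19.0 CPM and 0.20 (-0.13 to 0.50). Rpl7l1, the paralogue of Rpl7, had 34.5 and 19.9 CPM and a ratio of 0.80 (0.48 to 1.10) in the control-labelled library.

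Lists of other genes spanned a range in the same comparison. Abundant cytoplasmic mRNAs differed by 2.32 and 2.06 on the log2 scale and translation factors by 0.78 and 0.66. The ribosome components outside the symbol pattern, among them Fau, Rpsa and Rack1, differed by 2.00 and 1.66. Mitochondrial ribosomal protein genes, whose products work in the other ribosome of the cell, differed by 0.18 and 0.23, and snoRNA host genes by 0.09 and 0.02.

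**Figure D2:**
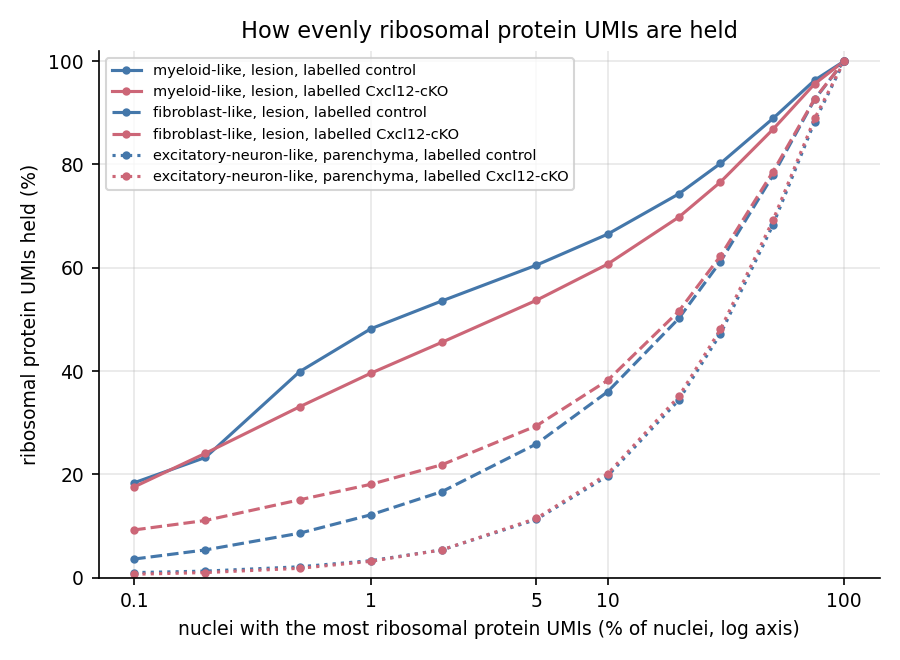
Percent of member UMIs (vertical axis) held by the nuclei with the most member UMIs (horizontal log axis, % of nuclei), for lesional myeloid-like (solid), lesional fibroblast-like (dashed) and parenchymal excitatory-neuron-like (dotted) nuclei of each library. The top 5% of myeloid-like nuclei held 60.5% and 53.7% of member UMIs, and those of excitatory-neuron-like nuclei 11.3% and 11.5%.

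In lesional myeloid-like nuclei, the 1% with the most member UMIs held 48.2% and 39.6% of all member UMIs, and in lesional fibroblast-like nuclei 12.2% and 18.1%. The plot of how UMIs were held shows the myeloid-like curves far above the others. Nuclei with at least 5% of their UMIs from members numbered 61 of 21743 (0.281%), and they held 10.6% of the member UMIs of the nuclei kept. The filters had removed 76 further barcodes at or above 5%, which held 29362 member UMIs. Those had a median of 748 UMIs and a median mitochondrial share of 17.8%. In the 61 kept, shares ran from 5.02 to 32.8%, with a median of 9.67%, and the nearest nucleus below the threshold had 4.96%. Of these 61, 16 were lesional myeloid-like nuclei of the control-labelled library and 27 of the Cxcl12-cKO-labelled library, which held 48.0% and 41.0% of their class's member UMIs. By sex-linked UMIs, the 16 were 10 female, 1 male and 5 neither, and the 27 were 11 female, 4 male, 1 both and 11 neither.

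The genes in those nuclei differed from the rest of the class. Over the 43 nuclei together, Apoe, a lipid carrier of microglia and macrophages, was at 39418 CPM against 3081 CPM in the 3541 other lesional myeloid-like nuclei. C1qa, a complement subunit, was at 5785 against 271 CPM. Fth1, the ferritin heavy chain, was at 9048 against 299 CPM. The nuclear RNAs Malat1 and Neat1 were lower, at 25874 against 45171 CPM and 386 against 1560 CPM. The myeloid markers used for naming did not all move together. Besides C1qa, Csf1r was higher at 746 against 335 CPM, Cx3cr1 at 771 against 253 CPM and Sall1, on 14 UMIs, at 71.0 against 45.9 CPM. P2ry12 (213 against 208 CPM) and Itgam (249 against 219 CPM) differed little. Ptprc (675 against 897 CPM) and Mrc1 (127 against 277 CPM) were lower. Outside these markers, Tyrobp (2436 against 103 CPM), Cst3 (7079 against 231 CPM), C1qb, C1qc, Lyz2, Ctss and Cd74 were also higher. The T-cell receptor subunits Cd3d and Cd3g were at 40.6 against 0.437 CPM and 55.8 against 0.546 CPM, where the first values rest on 8 and 11 UMIs. These genes were chosen after their values were seen. The part of attached cytoplasm and of other cells in these values was not tested.

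Without nuclei at or above 5%, the log2 ratio of myeloid-like to fibroblast-like nuclei was 0.78 and 0.73. The share of the median nucleus was 0.317% and 0.305% in myeloid-like and 0.200% and 0.196% in fibroblast-like nuclei. The direction was kept, and the size was less than the summed UMIs gave. A finer clustering gave 0.70 and 0.52.

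**Figure D3:**
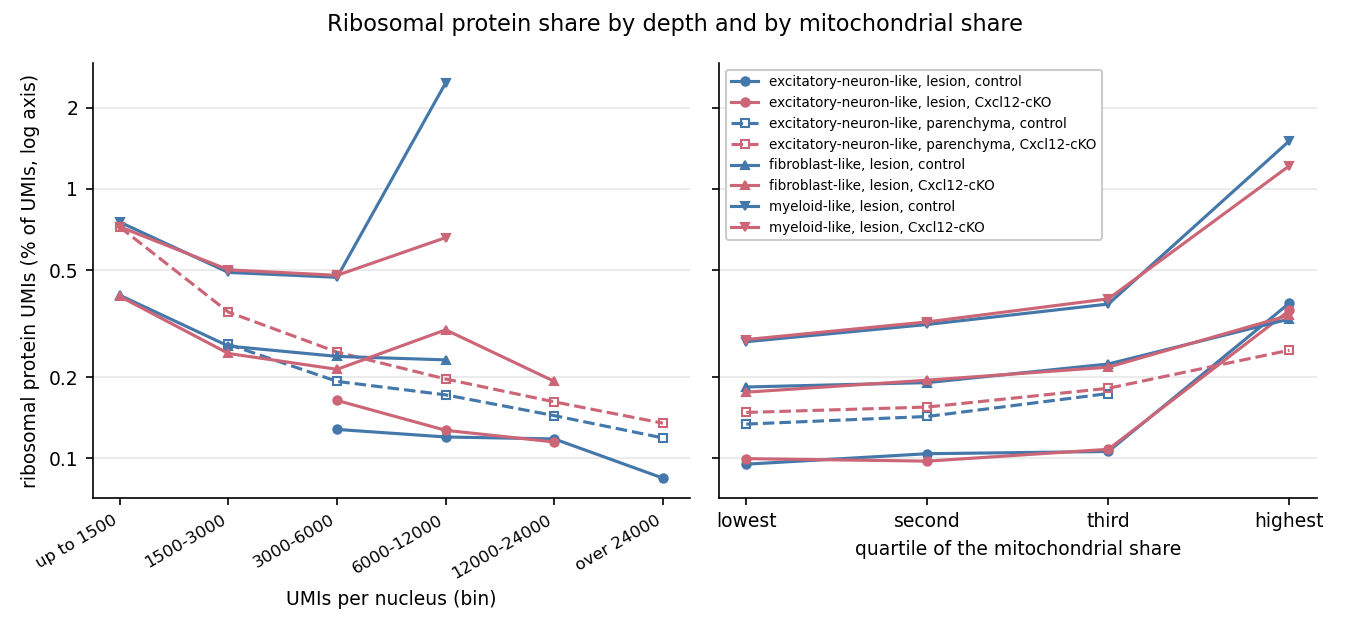
Member share (vertical log axis, % of UMIs) by bins of UMIs per nucleus (left) and by quartile of the mitochondrial share over all nuclei (right), for lesional excitatory-neuron-like, fibroblast-like and myeloid-like and parenchymal excitatory-neuron-like nuclei, where a bin holds at least 20 nuclei. Lesional excitatory-neuron-like nuclei lie below parenchymal ones in each depth bin they share (0.118% against 0.144% at 12000 to 24000 UMIs, control-labelled library), and each of the classes drawn is highest in the top mitochondrial quartile where it has enough nuclei.

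The member share was highest in the top mitochondrial quartile of the classes drawn, and the lower quartiles were not ordered in every class. In lesional myeloid-like nuclei of the control-labelled library it was 0.271, 0.314, 0.374 and 1.51% from the lowest to the highest mitochondrial quartile. In lesional fibroblast-like nuclei it was 0.184, 0.191, 0.224 and 0.329%. Lesional excitatory-neuron-like nuclei had 0.0951, 0.104, 0.106 and 0.377%, where the last value rests on 20 nuclei. In the Cxcl12-cKO-labelled library, lesional excitatory-neuron-like nuclei had 0.0997 and 0.0976% in the lowest 2 quartiles. The step was largest between the last 2 quartiles in the 3 classes of the control-labelled library.

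Excitatory-neuron-like nuclei went the other way between regions. Their member share was 0.111% in the lesion and 0.138% in the parenchyma of the control-labelled library, and 0.115% and 0.155% in the Cxcl12-cKO-labelled library. The lesional share was lower by 0.32 (log2 ratio -0.32, -0.35 to -0.29) and 0.43 (-0.43, -0.48 to -0.38) on the log2 scale, over 508 and 2172 nuclei and then 237 and 2052. By sex-linked UMIs, the female and male nuclei gave -0.49 and -0.14 in the first library and -0.35 and -0.52 in the second, so all 4 were below 0. Their mean was -0.37 ± 0.18 (SD, n = 4 mice told apart by sex-linked UMIs), and an exact two-sided sign-flip permutation test gave p = 0.125, the smallest that 4 mice allow, so this design cannot reach 0.05. The mitochondrial share was higher in the lesion, by 2.04 and 1.36, the opposite direction.

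Large-subunit members were lower by 0.36 and 0.45 (log2 ratios -0.36 and -0.45), and small-subunit members by 0.25 and 0.39 (-0.25 and -0.39). At least 1.5-fold lower in the lesion were 15 of 79 members in the control-labelled library, against 23.8% of all genes, and 26 of 79 in the Cxcl12-cKO-labelled library, against 24.1%. At least 1.5-fold higher were 0 of 79, against 4.41%, and 1 of 79, Rps27l, against 6.57%. The median member was at -0.24 and -0.33, against -0.12 and -0.11 over all genes tested, so the first count is below the background and the second above it.

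**Figure D4:**
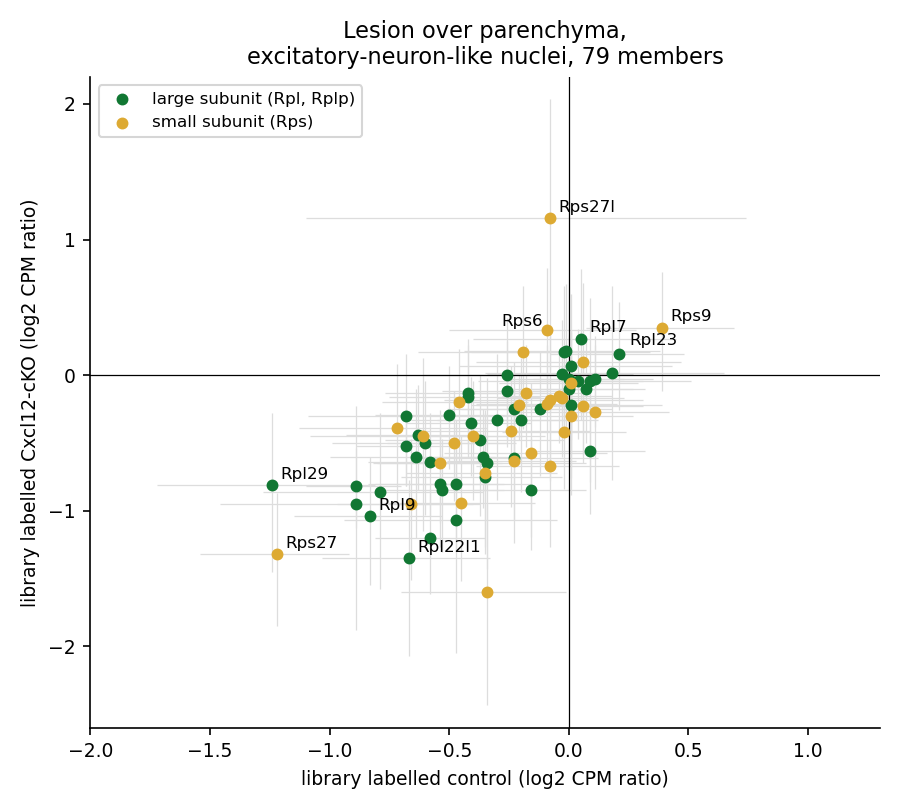
Log2 ratio of lesion over parenchyma in excitatory-neuron-like nuclei for each of the 79 members, in the control-labelled library (horizontal) and labelled Cxcl12-cKO (vertical), with exact 95% counting intervals as grey lines. Most members lie left of and below 0; Rps27, Rpl29 and Rpl22l1 are among the lowest, and Rps9 and Rps27l are highest.

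Rps27, a small-subunit protein with a zinc finger, had 12.6 CPM in lesional and 29.5 CPM in parenchymal excitatory-neuron-like nuclei of the control-labelled library, and 11.7 and 29.5 CPM in the other. Its log2 ratios were -1.22 (-1.54 to -0.92) and -1.32 (-1.85 to -0.87). Rpl29 had 6.03 and 14.3 CPM, then 8.54 and 15.2 CPM. Rpl22l1 had 10.4 and 16.5 CPM, then 6.95 and 18.2 CPM, while its partner Rpl22 had 17.3 and 17.3 CPM, then 15.8 and 17.1 CPM. Rpl9 had 13.1 and 23.4 CPM, then 12.6 and 26.4 CPM. For Rps27, Rpl29, Rpl22l1 and Rpl9, the lesional level was the lower in both libraries. They were chosen for a low mean ratio over these libraries, so the shared direction follows largely from that choice.

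The highest members differed by less. Rps9 had 14.3 CPM in the lesion and 11.0 CPM in the parenchyma of the control-labelled library, and 15.8 and 12.5 CPM in the other, and the interval of the first ratio, 0.39 (0.07 to 0.69), excluded 0 while that of the second, 0.35 (-0.12 to 0.76), did not. Rpl23 had 17.2 and 14.9 CPM, then 18.3 and 16.5 CPM. Rps6, the substrate of S6 kinase, had 8.79 and 9.42 CPM, then 12.6 and 10.1 CPM, so its direction differed between libraries. Rps27l, the paralogue of Rps27 and a target of p53, had 1.71 and 1.85 CPM, then 3.48 and 1.62 CPM, where the lesional value rests on 11 UMIs. Its ratios were -0.08 and 1.16 (0.03 to 2.04), which is not a direction shared by the libraries.

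Other lists in these neurons bracketed the members. Mitochondrial ribosomal protein genes were at -0.43 and -0.44, abundant cytoplasmic mRNAs at -0.47 and -0.33, and snoRNA host genes, whose introns carry small nucleolar RNAs, at -0.70 and -0.99. Nuclear RNAs were at -1.19 and -1.04. Translation factors were at -0.04 (-0.10 to 0.02) and -0.08 (-0.18 to 0.01), and ribosome assembly genes at -0.06 and 0.02, intervals that held 0. Regulators of mTOR and Myc were at 0.04 and 0.17. Leading ribosome components outside the symbol pattern were not lower in both libraries. Fau had 19.5 CPM in the lesion and 19.8 CPM in the parenchyma of the control-labelled library, then 26.9 and 24.3 CPM. Rpsa had 15.5 and 15.7 CPM, then 17.7 and 16.2 CPM, and Rack1 had 9.71 and 9.27 CPM, then 13.3 and 9.44 CPM. With mitochondrial genes and Malat1 left out of the denominator, the members were at -0.40 and -0.50, and scaled to the median gene they were at -0.20 and -0.32.

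In the depth bins that both regions shared, the lesional share was the lower. At 12000 to 24000 UMIs, the share was 0.118% in lesional and 0.144% in parenchymal nuclei of the control-labelled library, and 0.115% and 0.162% in the other. At 6000 to 12000 UMIs it was 0.120% and 0.172%, then 0.127% and 0.197%. Fibroblast markers were more frequent in lesional than in parenchymal neurons, at 156 and 92.6 CPM against 32.2 and 32.0 CPM, with 7 of 7 markers detected in each. Myeloid markers were not, at 30.7 and 42.7 CPM against 38.9 and 41.7 CPM. The part of these markers in the result was not tested. In the highest mitochondrial quartile the direction was the opposite in the Cxcl12-cKO-labelled library, at 0.354% over 20 lesional and 0.252% over 51 parenchymal nuclei.

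In other classes the direction differed between libraries or the values rested on few parenchymal nuclei. Inhibitory-neuron-like nuclei were at -0.29 (-0.36 to -0.22) and 0.11 (0.04 to 0.17). In the second of these, 1 lesional nucleus held 618 member UMIs, 24.1% of the class, and without it, an alternative chosen after seeing the data, the ratio was -0.28 (-0.35 to -0.21). The median nucleus was lower in the lesion of both libraries, at 0.110% against 0.160% and at 0.122% against 0.175%. Astrocyte-like nuclei were at 0.25 (0.14 to 0.36) and -0.14 (-0.24 to -0.03), over 63 and 61 parenchymal nuclei. Fibroblast-like nuclei were at -0.60 (-0.69 to -0.50) and -0.80 (-0.89 to -0.71), over 61 parenchymal nuclei in each library, and their mitochondrial share was also lower in the lesion, with log2 ratios of -0.98 and -1.31. Fibroblast markers were at 4302 and 3847 CPM in the lesion and 1143 and 1110 CPM in the parenchyma, and mural markers at 225 and 259 CPM against 604 and 842 CPM, with 7 of 7 detected for each list. Their part in the result was not tested. At least 1.5-fold lower were 41 and 58 of 79 members, against 25.8% and 27.6% of all genes. Myeloid-like nuclei were at -1.96 and -0.86 over 30 and 46 parenchymal nuclei, in which 2 nuclei held 76.8% and 39.0% of member UMIs.

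Members took different fractions of the class total, which does not depend on how much of all RNA they made up. The fractions were compared over lesional classes with at least 5000 member UMIs, and they rest on summed UMIs. In myeloid-like nuclei, 16 and 27 high-share nuclei held 48.0% and 41.0% of the member UMIs. Fractions without those nuclei are not given, so the myeloid-like values may not hold for most nuclei of the class. Rpl15 made up 1.73% of member UMIs in excitatory-neuron-like nuclei and 0.685% in astrocyte-like nuclei, 2.53-fold apart. Rpl22, a large-subunit protein that also binds other RNAs, made up 1.51% in excitatory-neuron-like nuclei and 0.844% in myeloid-like nuclei. Its paralogue Rpl22l1 made up 0.837% and 0.355%, so the pair moved the same way between these classes. Rpl5, which carries 5S rRNA into the ribosome, made up 1.66% and 0.936%.

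**Figure D5:**
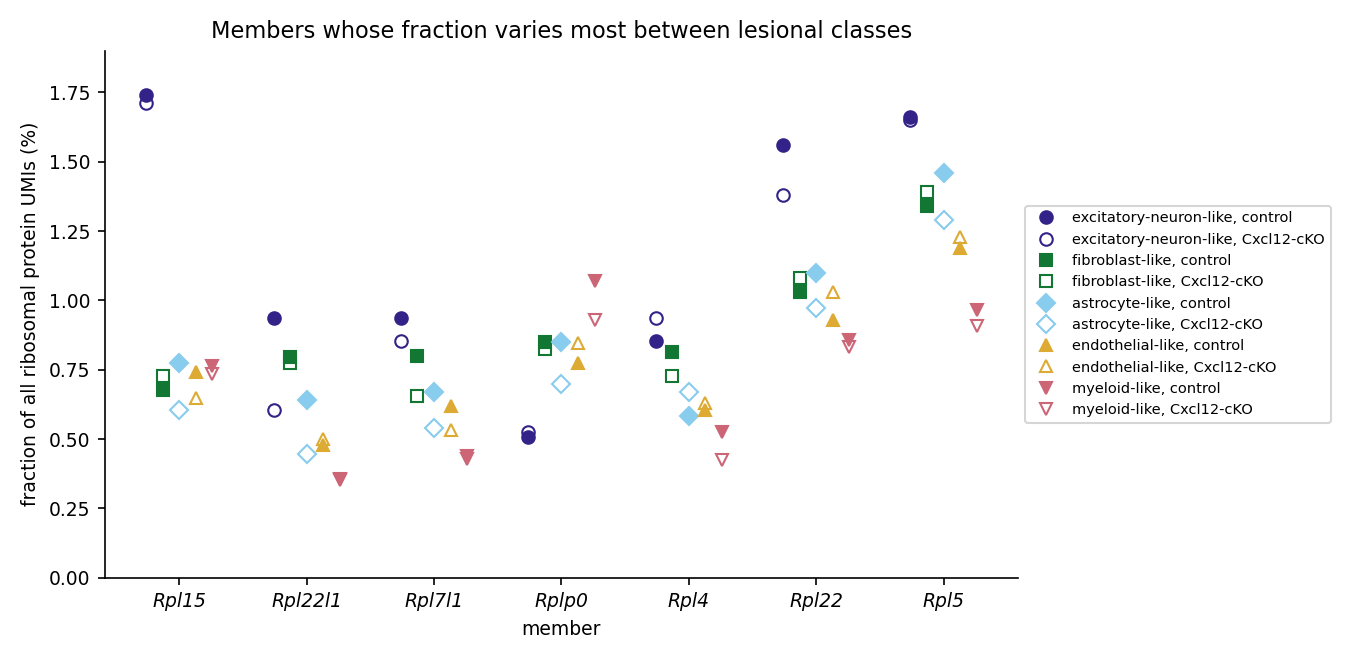
Fraction of all member UMIs (vertical axis, %) taken by 7 members with a wide range over lesional classes, with filled marks for the control-labelled library and open marks for the Cxcl12-cKO-labelled library. Rpl15 is near 1.7% in excitatory-neuron-like nuclei and below 0.8% in the other classes drawn, in both libraries. Fractions are of summed UMIs, with high-share nuclei included.

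The plotted members were chosen by their range over both libraries summed, so likeness between the libraries follows in part from that choice. In the plot of fractions, the libraries mostly kept the differences between classes. Rpl22l1 was an exception, at 0.936% in excitatory-neuron-like and 0.795% in fibroblast-like nuclei of the first library and 0.606% and 0.775% in the second. Rpl15 was at 1.74% and 1.71% in excitatory-neuron-like nuclei of the control-labelled and Cxcl12-cKO-labelled libraries, and at 0.677% and 0.729% in fibroblast-like nuclei. In classes under the minimum, it was at 1.34% (0.9 to 1.92) and 1.29% (0.887 to 1.80) in inhibitory-neuron-like nuclei and at 0.947% and 0.907% in oligodendrocyte-like nuclei. Rplp0 went the opposite way, at 0.509% and 0.524% in excitatory-neuron-like and 1.07% and 0.929% in myeloid-like nuclei. Rpl4 (0.878% and 0.472%) and Rpl7l1 (0.912% and 0.434%) were highest in excitatory-neuron-like and lowest in myeloid-like nuclei.

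Paralogues that are tissue-restricted elsewhere were scarce. Rpl3l, known from striated muscle, was at 0.421 to 0.624 CPM in the 4 matrices, while Rpl3 was at 15.3 to 47.3 CPM. Rpl39l, known from testis, had 11 UMIs in all, and Rpl10l had 0, against 3570 for Rpl39 and 3994 for Rpl10. Rps4x, on the X chromosome, was at 32.1 and 9.58 CPM in the lesion and parenchyma of the control-labelled library, and at 33.5 and 12.2 CPM in the other.

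Between libraries, lesional fibroblast-like nuclei, the class targeted by Col1a2-creER, had nearly equal member shares in summed UMIs. They were 0.25% in the control-labelled library and 0.246% in the Cxcl12-cKO-labelled library, a log2 ratio of -0.02 (-0.04 to -0.00). No member passed 1.5-fold in either direction (0 of 79), against 3.43% of genes higher and 2.65% lower. The size of this summed ratio depended on a few nuclei, while the shares of the median nucleus, given above, were also close. In the Cxcl12-cKO-labelled library, 5 of 4165 nuclei had at least 5% of their UMIs from members and held 9.63% of member UMIs. Without such nuclei, an alternative chosen after seeing the data, the shares were 0.243% and 0.222%, a ratio of -0.13. The female and male nuclei were each at -0.13, and without filters on nuclei the pooled value was 0.30. Of 79 members, 5 were higher and 38 lower in both female and male nuclei (6.33% and 48.1%), against 27.5% and 27.6% of all genes tested.

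Rpl34 was the highest of these, at 25.3 CPM in the control-labelled library and 30 CPM in the other, a log2 ratio of 0.24 (0.04 to 0.45). Rpl10a (39.0 and 43.7 CPM) and Rpl29 (12.4 and 13.8 CPM) followed. Rpl23a was the lowest, at 17.5 and 13.5 CPM, a ratio of -0.38 (-0.65 to -0.10), with 19.8 and 15.3 CPM in female and 15.7 and 11.4 CPM in male nuclei. Rpl7a (14.6 and 11.3 CPM) and Rpl27 (17.3 and 13.7 CPM) were next. The spread between mice of 1 genotype could not be measured.

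In lesional myeloid-like nuclei the share was 0.786% in the control-labelled library and 0.615% in the Cxcl12-cKO-labelled library, a ratio of -0.35 (-0.37 to -0.33). The female nuclei gave 1.21% and 0.594%, a ratio of -1.03, and the male nuclei 0.369% and 0.379%, a ratio of 0.04. Nuclei with both or neither kind of sex-linked UMI are in the pooled shares only. The pooled 0.615% lay above both the female and the male value of that library, where 11 of the 27 high-share nuclei had neither. Female nuclei held 10 of the 16 high-share nuclei of the control-labelled library. Without nuclei at or above 5% the ratio was -0.18. At least 1.5-fold lower were 4 of 79 members, against 3.92% of genes, and higher 0 of 79, against 2.96%. Without a threshold, 2 of 79 members were above 0 (2.53%), against 46.8% of all genes tested. In both female and male nuclei, 0 members were higher and 31 lower (39.2%), against 24.5% and 27.8% of all genes tested. Rps27l (13.2 and 7.55 CPM), Rpl4 (41.4 and 26.1 CPM) and Rps4x (107 and 71.2 CPM) were the lowest with the same direction in both sexes.

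In parenchymal excitatory-neuron-like nuclei the member share was 0.138% and 0.155%, a ratio of 0.16 (0.14 to 0.18), with 0.06 in female and 0.27 in male nuclei. Of 79 members, 71 were above 0 (89.9%, against 47.5% of all genes tested), but 0 passed 1.5-fold, against 2.35% of genes higher and 1.32% lower. The mitochondrial share was higher in the Cxcl12-cKO-labelled library by 0.95 (0.92 to 0.98). Its part in the member difference was not tested. In lesional inhibitory-neuron-like nuclei the ratio was 0.55 (0.47 to 0.63), and 26 of the 49 members with at least 50 UMIs were at least 1.5-fold higher, against 8.12% of genes. Without the single nucleus of 618 member UMIs the ratio was 0.17 (0.08 to 0.26), and 5 of 36 members were at least 1.5-fold higher, against 7.76% of genes.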

How the data were processed

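The authors deposited 4 filtered matrices of UMI counts, made with Cell Ranger 9.0.0 on GRCm39, 1 per region and library, with raw counts per gene and nucleus. Whether intronic reads were counted is not stated. Nuclei in the outer 2.5% of UMIs or genes, or the top 2.5% of mitochondrial share, were removed, keeping 757 to 36244 UMIs and at most 8.75% mitochondrial. Leiden clustering (scanpy 1.11.5, resolution 0.25, 3000 variable genes, 30 components, 20 neighbours) left out ribosomal protein, mitochondrial and sex-linked genes. Clusters (17) were named from marker lists, with naming thresholds set after clusters were seen. Scrublet called 3 and 20 barcodes, so doublets were treated by alternatives. Nuclei were assigned to mice by Xist and Y-linked UMIs. Nuclei with both or neither were left out of all values by sex. In the lesions, 1212 nuclei of the control-labelled and 1224 of the Cxcl12-cKO-labelled library had neither.

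UMIs were summed per class, region and library, and shares and log2 ratios (0.5 UMI added for single genes, 50 UMIs minimum over both groups) were given with exact 95% intervals (confidence level 0.95). Members were named by most UMIs, extreme neuron ratios, shared direction in both mice, and range between classes, plus paralogues and the stalk. The members, gene lists and rules were chosen with earlier results of these data known. Ratios and intervals were tested on simulated data with 200 altered genes. Simulated UMIs were independent, as the intervals assume, so the test cannot show how they hold where few nuclei carry many UMIs. Up to 18 other settings were tried for each result, and 3 settings in all were chosen after seeing the data. Intervals used scipy 1.17.1 under Python 3.11.15. A few members that the naming rule selects are not reported here.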

Additional observations from a re-analysis of the deposited data

Results flagged for a closer look

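Differences that went opposite ways in groups of nuclei were all untested. Between libraries (Cxcl12-cKO-labelled over control-labelled), the log2 ratio of the member share in all lesional nuclei was -0.09 in female and 0.05 in male nuclei. In lesional endothelial-like nuclei it was 0.17 in female and -0.42 in male nuclei, and in lesional oligodendrocyte-like nuclei 0.35 and -0.39. Lesion over parenchyma in inhibitory-neuron-like nuclei was -0.29 in the control-labelled library and 0.11 in the Cxcl12-cKO-labelled library, where the value was -0.28 without the nucleus with the most member UMIs. In astrocyte-like nuclei it was 0.25 and -0.14. Whether these pairs differ was not tested, and each rests on 1 mouse of a sex or 1 library. Values by sex leave out nuclei with both or neither kind of sex-linked UMI.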

How the results depend on the processing

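The log2 ratios of the member share were recomputed under 18 alternatives, of which removal of high-share nuclei and median shares were chosen after seeing the data. Of these ratios, 50 stayed within the counting interval, 72 moved beyond it and 4 changed sign. Of the recomputed counts of members, 30 stayed within 1.5 times the reported count and 2 did not. For lesion over parenchyma in excitatory-neuron-like nuclei of the control-labelled library, the log2 ratio was -0.25 (no filters), -0.41 (nuclei assigned by own markers), -0.46 (top Scrublet scores removed), -0.49 (female nuclei), -0.14 (male nuclei), -0.47 (depth bins), -0.56 (mitochondrial quartiles), -0.40 (mitochondrial genes and Malat1 left out), -0.20 (median-of-ratios scaling) and -0.45 (median shares). For lesion over parenchyma in excitatory-neuron-like nuclei of the Cxcl12-cKO-labelled library, the log2 ratio was -0.31 (nuclei assigned by own markers), -0.64 (top Scrublet scores removed), -0.35 (female nuclei), -0.52 (male nuclei), -0.58 (depth bins), -0.37 (mitochondrial quartiles), -0.50 (mitochondrial genes and Malat1 left out), -0.32 (median-of-ratios scaling) and -0.58 (median shares). For myeloid-like over fibroblast-like nuclei in the lesion of the control-labelled library, the log2 ratio was 1.69 (no mitochondrial filter), 1.40 (no filters), 0.70 (resolution 0.5), 1.59 (these genes in clustering), 1.57 (nuclei assigned by own markers), 1.72 (both-sex nuclei removed), 2.27 (female nuclei), 0.62 (male nuclei), 1.20 (mean shares), 1.55 (depth bins), 1.05 (mitochondrial quartiles), 1.59 (median-of-ratios scaling), 0.78 (high-share nuclei removed) and 0.67 (median shares). For myeloid-like over fibroblast-like nuclei in the lesion of the Cxcl12-cKO-labelled library, the log2 ratio was 0.86 (no filters), 0.52 (resolution 0.5), 1.41 (these genes in clustering), 1.47 (nuclei assigned by own markers), 1.38 (top Scrublet scores removed), 1.43 (both-sex nuclei removed), 1.37 (female nuclei), 0.79 (male nuclei), 1.15 (mean shares), 1.05 (depth bins), 1.02 (mitochondrial quartiles), 1.28 (median-of-ratios scaling), 0.73 (high-share nuclei removed) and 0.63 (median shares). For Cxcl12-cKO-labelled over control-labelled library in lesional fibroblast-like nuclei, the log2 ratio was 0.30 (no filters), 0.02 (resolution 0.5), -0.09 (these genes in clustering), -0.14 (nuclei assigned by own markers), -0.12 (both-sex nuclei removed), -0.13 (female nuclei), -0.13 (male nuclei), -0.05 (mean shares), 0.03 (depth bins) and -0.13 (high-share nuclei removed). For Cxcl12-cKO-labelled over control-labelled library in lesional myeloid-like nuclei, the log2 ratio was -0.38 (no mitochondrial filter), -0.24 (no filters), -0.16 (resolution 0.5), -0.26 (these genes in clustering), -0.24 (nuclei assigned by own markers), -0.41 (both-sex nuclei removed), -1.03 (female nuclei), 0.04 (male nuclei), -0.10 (mean shares), -0.48 (depth bins), -0.05 (mitochondrial quartiles), -0.18 (high-share nuclei removed) and -0.06 (median shares). For Cxcl12-cKO-labelled over control-labelled library in parenchymal excitatory-neuron-like nuclei, the log2 ratio was 0.19 (nuclei assigned by own markers), 0.06 (female nuclei), 0.27 (male nuclei), 0.22 (mean shares), 0.26 (depth bins) and 0.11 (mitochondrial quartiles). The count of members at least 1.5-fold higher in lesional excitatory-neuron-like nuclei was 2 and 4 with male nuclei, against 0 and 1. Ratios with more than 1 sign were those between libraries in fibroblast-like nuclei and in myeloid-like nuclei, where male nuclei gave the positive value. The cause of each was not tested. The lesion over parenchyma ratios in excitatory-neuron-like nuclei stayed below 0 and the myeloid-like over fibroblast-like ratios above 0 in all alternatives. The groups compared share fewer than 2 replicate numbers in the labels, so no pairing by label was possible. Pairing within mice told apart by sex-linked UMIs was used only for lesion over parenchyma in excitatory-neuron-like nuclei. In lesional inhibitory-neuron-like nuclei of the Cxcl12-cKO-labelled library, leaving out the nucleus with the most member UMIs, also chosen after seeing the data, moved the ratio to the parenchyma from 0.11 to -0.28 and the ratio to the control-labelled library from 0.55 to 0.17. Counting depth limits single members: many had under 100 UMIs in lesional neurons.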
